A study of Homo sapiens with 8 samples.

Results

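The E2F family of transcription factors was taken as 10 genes, the 8 E2F genes E2F1 to E2F8 and the genes of their DP partners TFDP1 and TFDP2. They were chosen by symbol and not by a measured value, although earlier results of these data were known. The choice was made from 19794 protein-coding genes annotated in GENCODE release 44 (GRCh37), and all 10 symbols were found. RNA polymerase II (RNAPII) bound to chromatin was measured by ChIP-seq in MDA-MB-453, a human cell line established from a breast cancer and luminal in its markers. Cells received either vehicle or 600 nM CDDD11-8, an inhibitor of CDK9, for 4 h, with 2 replicates of each. The replicates were independent passages of 1 cell line, so their spread covers passages and not patients or other tumours. Peaks had been called in each of the 4 ChIP libraries separately, and the question addressed here is where the RNAPII peaks of these genes lay with and without CDK9 inhibition.

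E2F proteins bind DNA as heterodimers with a DP protein, except the atypical E2F7 and E2F8, which bind without one, and they control genes for DNA replication and entry into S phase. E2F1, E2F2 and E2F3 are activators that RB1 holds in check until cyclin-dependent kinases phosphorylate it. E2F4 and E2F5 repress together with the pocket proteins RBL1 and RBL2, E2F6 represses with polycomb proteins, and E2F7 and E2F8 repress on their own. CDK9 is the kinase of P-TEFb, which releases RNAPII from its pause just after the transcription start site (TSS).

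Several E2F genes are known to be controlled by E2F proteins, so their promoters were read for the E2F consensus. The letters TTCGCGC or TTGGCGC, on either strand, occurred within 250 bp before to 50 bp after the TSS in 7 of the 10 genes, against 6.45% of all 19794 protein-coding promoters of that length. TTCGCGC alone was found in 2.92% of all promoters and TTGGCGC in 3.83%, and the letters of one do not match the other. The 7 genes were E2F1, E2F2, E2F3, E2F5, E2F7, E2F8 and TFDP1, each with 1 match, whereas E2F4, E2F6 and TFDP2 had 0 matches in this window. TFDP1 carried TTCGCGC and the other 6 genes TTGGCGC. In the activators the match lay close to the TSS, from base -19 to -13 in E2F1, -41 to -35 in E2F2 and -24 to -18 in E2F3, whereas in the other genes it began 99 bp or more before it. In each of the 7 genes the match was inside the promoter peak in all 4 libraries. The 250 bases before the TSS are shown for 6 of these genes, in GRCh37 coordinates and read 5′ to 3′ on the strand of the gene, because they hold these matches. Capitals mark the match, which appears as its reverse complement where it lies on the opposite strand (E2F7 and TFDP1).
E2F1, chr20:32274192-32274441, minus strand: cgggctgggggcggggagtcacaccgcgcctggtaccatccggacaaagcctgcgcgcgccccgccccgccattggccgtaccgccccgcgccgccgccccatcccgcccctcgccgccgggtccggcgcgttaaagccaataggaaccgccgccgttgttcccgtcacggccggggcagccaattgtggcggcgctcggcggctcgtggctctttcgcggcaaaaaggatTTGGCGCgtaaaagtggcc
E2F2, chr1:23857726-23857975, minus strand: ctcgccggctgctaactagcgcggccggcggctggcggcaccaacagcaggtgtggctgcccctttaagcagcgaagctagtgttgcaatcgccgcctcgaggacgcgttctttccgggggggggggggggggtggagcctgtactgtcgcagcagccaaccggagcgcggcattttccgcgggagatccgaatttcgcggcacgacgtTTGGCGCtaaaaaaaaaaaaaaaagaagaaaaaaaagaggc
E2F3, chr6:20401860-20402109, plus strand: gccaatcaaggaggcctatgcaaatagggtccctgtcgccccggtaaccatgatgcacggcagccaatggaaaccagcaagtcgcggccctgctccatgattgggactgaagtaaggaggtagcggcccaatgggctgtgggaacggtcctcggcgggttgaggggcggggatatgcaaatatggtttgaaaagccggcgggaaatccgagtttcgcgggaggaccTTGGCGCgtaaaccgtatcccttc
E2F7, chr12:77459350-77459599, minus strand: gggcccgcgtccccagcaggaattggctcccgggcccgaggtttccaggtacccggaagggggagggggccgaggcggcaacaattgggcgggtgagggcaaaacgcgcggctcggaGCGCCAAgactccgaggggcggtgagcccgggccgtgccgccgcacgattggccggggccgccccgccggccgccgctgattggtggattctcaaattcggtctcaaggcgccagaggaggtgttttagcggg
E2F8, chr11:19263168-19263417, minus strand: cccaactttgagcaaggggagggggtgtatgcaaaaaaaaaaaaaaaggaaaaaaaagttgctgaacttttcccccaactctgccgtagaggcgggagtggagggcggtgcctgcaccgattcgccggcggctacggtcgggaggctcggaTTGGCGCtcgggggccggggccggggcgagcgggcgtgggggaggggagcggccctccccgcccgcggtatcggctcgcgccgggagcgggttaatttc
TFDP1, chr13:114238818-114239067, plus strand: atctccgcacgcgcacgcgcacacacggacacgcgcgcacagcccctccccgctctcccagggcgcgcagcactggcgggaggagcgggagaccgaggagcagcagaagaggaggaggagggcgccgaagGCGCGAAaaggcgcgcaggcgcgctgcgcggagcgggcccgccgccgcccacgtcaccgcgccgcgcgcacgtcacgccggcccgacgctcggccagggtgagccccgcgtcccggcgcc

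The lists held 78306 and 57493 peaks in vehicle and 25897 and 21842 with CDDD11-8. The labels state a minimum of 60000000 paired-end reads for a sample. The lists do not give the reads of each library, so its exact depth is unknown. A peak is a region where the peak caller found more reads than in the chromatin input. Since the CDDD11-8 lists were shorter, most measures were also read with the same number of peaks, 21842, kept per library. Coverage by distance from the TSS, the last covered base, counts of separate gene body peaks and ranks among promoters were read with the full lists alone. The 8 luminal markers FOXA1, GATA3, XBP1, SPDEF, KRT8, KRT18, ERBB2 and TRPS1 all had a promoter peak in both vehicle libraries. A further 7 genes were markers of other cell types (KRT5, KRT14, TP63, VIM, PTPRC and COL1A1) and the oestrogen receptor gene ESR1. Of these, 0 had one in both.

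All 10 genes had a promoter peak, a peak that overlaps 300 bp either side of the TSS, in each of the 4 libraries. They were read against the 9602 protein-coding genes of at least 1 kb that had one too, called the background. A gene was called lower or higher when both CDDD11-8 libraries lay beyond both vehicle libraries, and the percent of background genes called in the same way is given beside the first count of each measure. With 2 libraries against 2, the exact two-sided permutation test cannot give less than p = 0.33, which is the p of every gene called, and no difference between treatments could reach 0.05.

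Peaks covered less of the gene body with CDDD11-8 in 8 of the 10 genes, against 45.3% of the background. The gene body was counted from base 300 past the TSS up to 3 kb beyond the transcription end site (TES), and its coverage is the share of its bases, in percent, that any peak holds. The size of the difference was uneven in the family. Mean coverage was 40.7 to 62.4 percentage points lower in E2F1, E2F2 and E2F8, 12.5 lower in E2F5, and 2.45 to 4.25 lower in E2F3, E2F6, E2F7 and TFDP1. TFDP2 was called higher, as were 21.5% of background genes, and E2F4 overlapped between treatments. The median over the 10 genes was 16.4% and 12.8% in vehicle and 6.52% and 6.25% with CDDD11-8, against 18.5% and 13.4% and then 9.04% and 7.53% over the background.

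**Figure D1:**
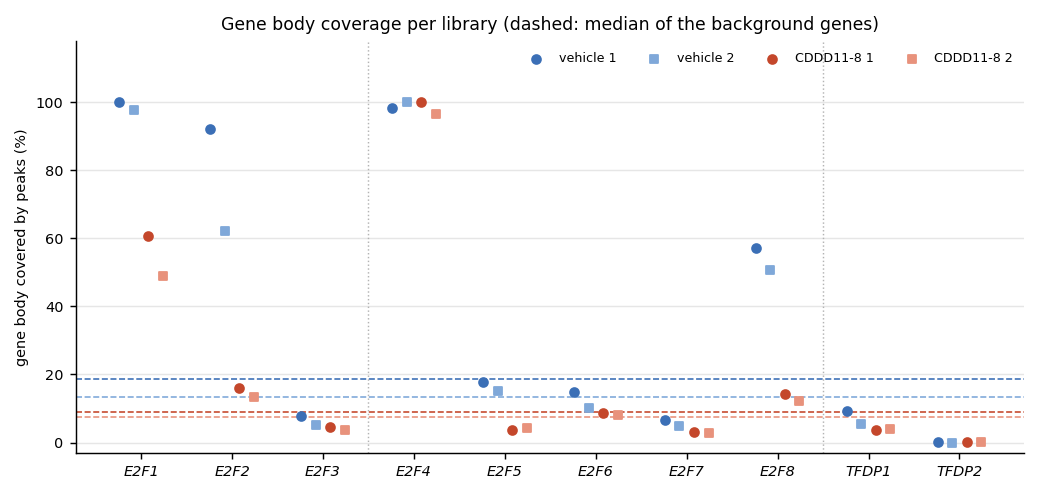
Gene body coverage in percent (y axis) for each of the 10 genes (x axis), with 1 point per library, circles for replicate 1 and squares for replicate 2, and dashed lines at the background medians. E2F1, E2F2 and E2F8 show the largest differences, E2F4 stays near 100% in all 4 libraries, and the other genes sit at or below 17.8%.

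Among the activators, E2F1 (chr20:32263283-32274191, minus strand), which drives replication genes and can also induce apoptosis genes, was covered over nearly its whole length in vehicle. Its gene body coverage was 100% and 97.7% in vehicle and 60.8% and 49.1% with CDDD11-8, a mean of 98.8% ± 1.65 (SD, n = 2) against 54.9% ± 8.28, and the groups did not overlap. The difference lay inside the gene: between 2 and 5 kb after the TSS, coverage was 100% and 89.4% in vehicle and 21.5% and 10.7% with CDDD11-8. The 3 kb after its TES were at 100% in all 4 libraries. The TSS of a neighbour, NECAB3, lies 1014 bp past the end of E2F1 on the same strand, so peaks there cannot be assigned to either gene. Without that stretch, with the window ended at the TES, E2F1 coverage was 100% and 97.0% in vehicle and 49.7% and 34.6% with CDDD11-8. Even this window held parts of peaks that ran on past the NECAB3 TSS, in vehicle as well as with CDDD11-8. With CDDD11-8 these peaks began 7.99 and 9.25 kb after the TSS of E2F1, so that part cannot be assigned to either gene.

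E2F2 (chr1:23832930-23857725, minus strand), an activator of the same replication genes, had the largest difference of the 10, 62.4 percentage points. Its coverage was 92.2% and 62.1% in vehicle, a mean of 77.1% ± 21.2 (SD, n = 2), and 16.1% and 13.4% with CDDD11-8, a mean of 14.8% ± 1.90. In the background, 2.71% of genes had a larger difference. In vehicle it held 8 and 9 peaks besides the promoter peak, and with CDDD11-8 it held 0 in both libraries. What was left was the promoter peak itself, which ended 4731 and 3994 bp after the TSS. Between 10 and 20 kb after the TSS, peaks covered 96.2% and 58.5% in vehicle and 0% in both CDDD11-8 libraries.

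E2F3 (chr6:20402110-20493945, plus strand) is the longest of the activators at 91.8 kb and was sparsely covered from the start, at 7.82% and 5.22% in vehicle and 4.49% and 3.66% with CDDD11-8. The groups did not overlap, but they were separated by less than 1 percentage point. The gene has an inner TSS 1800 bp after the first, from which the shorter E2F3b protein is made. One promoter peak spanned both starts in all 4 libraries. A summit, the point of highest signal in a peak, lay within 300 bp of the inner TSS in 0 of the vehicle libraries and in both CDDD11-8 libraries, 1 in each. The promoter peak ended 2852 and 2884 bp after the first TSS in vehicle and 4539 and 3164 bp after it with CDDD11-8. Of the 10 genes, E2F3 had the highest promoter fold enrichment in both vehicle libraries, 11.6 and 13.8 over the local background of the same library.

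Among the repressors, E2F4 (chr16:67226058-67232821, plus strand), the main E2F of resting cells, overlapped between treatments. It was covered at 98.2% and 100% in vehicle and at 100% and 96.4% with CDDD11-8, and the exact permutation p was 1. It was lower when CDDD11-8 replicate 1 was left out. E2F4 is 6.76 kb long, and the next gene, ELMO3, starts 193 bp past its end on the same strand. Cut off at its own TES, its coverage was 100% and 100% in vehicle and 100% and 97.1% with CDDD11-8.

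E2F5, a repressor that acts with RBL2, lies on chromosome 8 at 86089389 to 86126753 (plus strand). Its coverage was 17.8% and 15.3% in vehicle and 3.69% and 4.33% with CDDD11-8, with means of 16.5% ± 1.80 (SD, n = 2) and 4.01% ± 0.452. In vehicle, the covered bases fell into the promoter and a block from 31.9 kb after the TSS onwards, and no base between 2 and 20 kb was covered. The later part of that block overlaps RBIS, a gene that runs towards E2F5 on the opposite strand and overlaps its end. Peaks carry no strand, so RNAPII of the 2 genes cannot be told apart there. The earlier part of the block lies just past the end of RBIS, in the direction RBIS is read. Which of the 2 genes that part belongs to was not tested. The promoter peak of E2F5 itself was wider with CDDD11-8, at 3339 and 3060 bp against 1008 and 1578 bp.

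E2F6 (chr2:11584501-11606303, minus strand) was covered at 15.0% and 10.2% in vehicle and at 8.56% and 8.17% with CDDD11-8. When the 3 kb after the TES were left out, its values overlapped, 11.5% and 8.92% against 9.76% and 9.31%, and with the window begun at 2 kb and ended at the TES it was lower again, with a difference of -1.70 percentage points. Its call thus depended on the window. E2F6 was the one gene with a separate gene body peak in all 4 libraries, and thus the one with a promoter to gene body ratio in each. The log2 ratio of its promoter fold enrichment to that of its strongest gene body peak was 0.76 and 0.72 in vehicle and 3.05 and 2.30 with CDDD11-8. The same direction was seen in 63.0% of the 2626 background genes that had this ratio in all 4 libraries. The ratio of E2F6 compares different places, however. Its strongest gene body peak lay past the TES in vehicle, beginning 23.5 and 24.2 kb after the TSS. With CDDD11-8 it began 2.42 and 2.41 kb after the TSS, near the promoter peak. Without CDDD11-8 replicate 1, 4 genes had a ratio in each library (E2F3, E2F5, E2F6 and E2F8). Without vehicle replicate 1, 2 genes had one (E2F1 and E2F6). All were higher with CDDD11-8. Background shares of these counts are not given here, so they do not set the family apart. The gene body peak of E2F1 spanned the TSS of its neighbour NECAB3 in each library used.

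The atypical repressors E2F7 and E2F8 differed in how much was covered in vehicle. E2F7 (chr12:77415031-77459349, minus strand) was at 6.50% and 4.92% in vehicle and at 3.08% and 2.72% with CDDD11-8. E2F8 (chr11:19245610-19263167, minus strand) was at 57.2% and 50.6% in vehicle and at 14.3% and 12.2% with CDDD11-8. Its means were 53.9% ± 4.62 (SD, n = 2) and 13.2% ± 1.48, a difference of 40.7 percentage points that 9.66% of background genes exceeded. Between 5 and 10 kb after the TSS of E2F8, coverage was 62.0% and 47.4% in vehicle and 0% in both CDDD11-8 libraries. E2F7 held 6 and 4 separate gene body peaks in vehicle and 0 in both CDDD11-8 libraries, and E2F8 held 9 and 13 and then 0 and 1.

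Of the DP partners, TFDP1 (chr13:114239068-114295788, plus strand), which encodes the main dimerization partner DP1, was at 9.33% and 5.33% in vehicle and at 3.75% and 3.83% with CDDD11-8. It held 10 and 4 separate gene body peaks in vehicle and 0 in both CDDD11-8 libraries. TFDP2 (chr3:141663270-141868386, minus strand), which encodes DP2, is 205.1 kb long and had no peak called along it other than the one at its first TSS. The peak was weak, with a fold enrichment of 1.79 and 3.26 in vehicle and 5.64 and 3.42 with CDDD11-8. It reached 371 and 252 bp past the TSS in vehicle and 670 and 594 bp with CDDD11-8, and its gene body coverage was 0.0346% and 0% in vehicle and 0.179% and 0.142% with CDDD11-8. At a -log10 q-value of at least 5, or with equal numbers of peaks, TFDP2 no longer had a promoter peak in all 4 libraries, and the number of genes that did was 9. None of the 8 inner TSSs of TFDP2 listed in the annotation had a peak in any library.

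The count of 8 genes was lower when weak peaks were left out. With equal numbers of peaks it was 4 (E2F1, E2F2, E2F5 and E2F8), against 29.3% of background genes, and at a -log10 q-value of at least 5 it was 5 (the same 4 and E2F7), against 37.5%. With equal numbers of peaks the difference changed sign in E2F3, E2F6, E2F7 and TFDP1, to between 0.24 and 1.71 percentage points higher with CDDD11-8. E2F1, E2F2 and E2F8, the 3 largest differences, were called lower at both settings, but the difference of E2F8 was smaller, at -28.6 percentage points at that q-value and -9.41 with equal numbers of peaks. That of E2F2 was -52.2 and -48.9, and that of E2F1 was -43.9 at both.

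**Figure D2:**
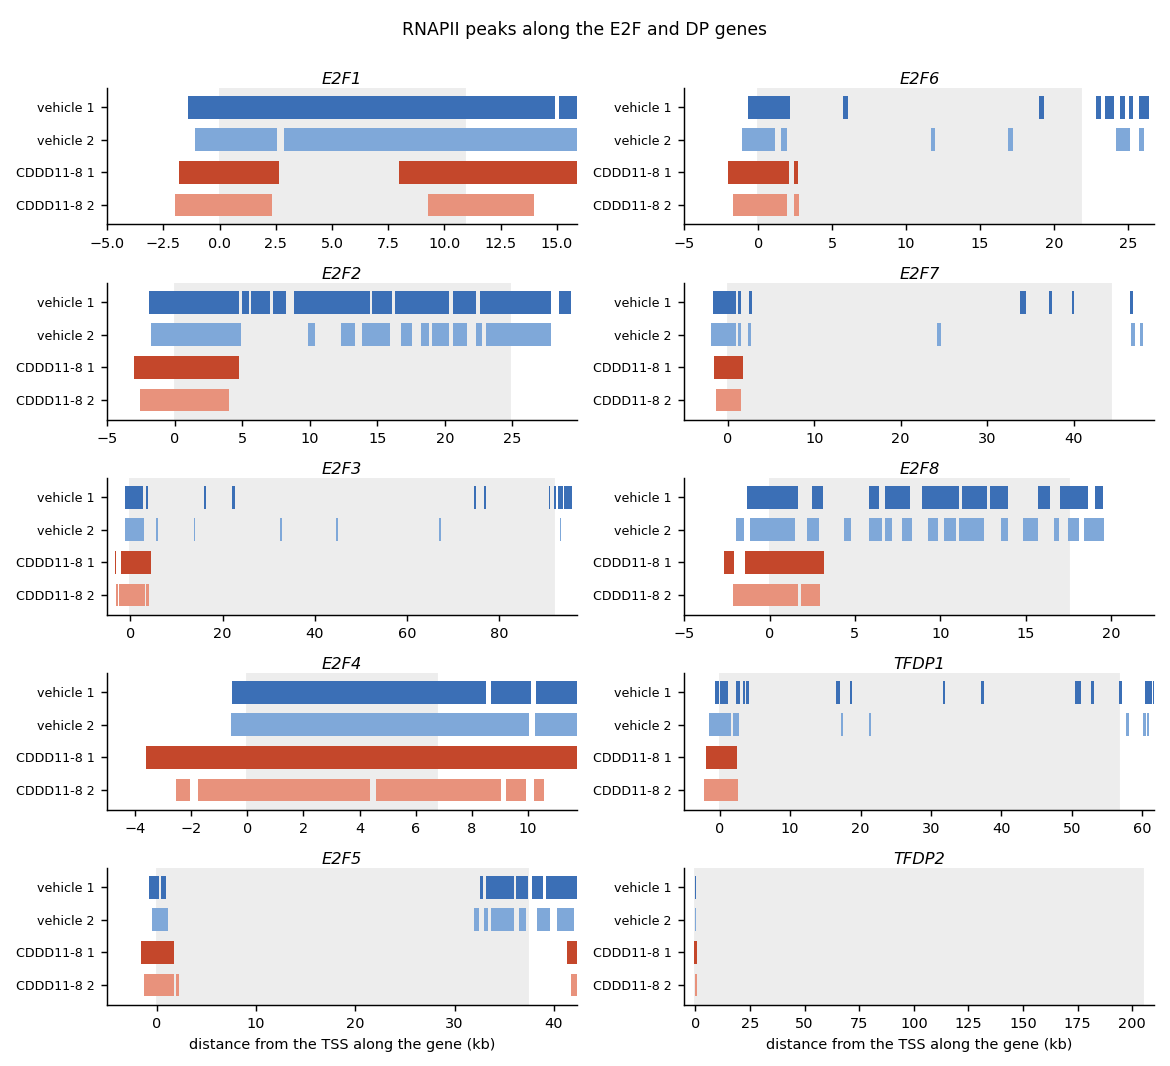
Peaks (coloured bars) along each of the 10 genes in the 4 libraries, with the distance from the TSS in kb on the x axis and the gene in grey, drawn to 5 kb beyond either end. In E2F2, E2F7 and TFDP1 the CDDD11-8 rows hold no peak past the one at the TSS, E2F4 is covered throughout, and TFDP2 has its peak at the TSS alone.

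By role, the activators had the higher coverage in vehicle and the larger difference. The median over E2F1, E2F2 and E2F3 was 92.2% and 62.1% in vehicle and 16.1% and 13.4% with CDDD11-8, and that over the 5 repressors was 17.8% and 15.3% and then 8.56% and 8.17%. The DP partners were at 4.68% and 2.67% and then 1.97% and 1.99%. The median difference was -43.9 percentage points for the activators and -4.25 for the repressors. The genes also differ in length. The activators E2F1 and E2F2 are 10.9 and 24.8 kb long, and the least covered genes, E2F3, E2F7, TFDP1 and TFDP2, are 44.3 kb or longer. However, E2F6, at 21.8 kb shorter than E2F2, was covered at 15.0% and 10.2% in vehicle. Coverage differed within a role too, with the repressor E2F4 at 98.2% and 100% in vehicle and the activator E2F3 at 7.82% and 5.22%. With so few genes a role the difference between roles is a description, and its link to length was not tested.

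With distance from the TSS, coverage of the 10 genes crossed over. Between 1 and 2 kb after the TSS, peaks covered 62.1% and 63.4% of the bases in vehicle and 85.3% and 82.1% with CDDD11-8. Between 5 and 10 kb, in the 9 genes long enough, they covered 27.6% and 17.8% in vehicle and 4.48% and 1.66% with CDDD11-8. Between 10 and 20 kb, in 7 genes, 16.2% and 10.2% were covered in vehicle and 0% in both CDDD11-8 libraries. The background genes crossed over too, with 59.2% and 60.0% in vehicle against 84.4% and 79.0% between 1 and 2 kb, and 14.5% and 9.10% against 2.95% and 1.91% between 10 and 20 kb. Both groups of libraries were separate in these bins, with an exact p of 0.33 each. The bins were read with the full lists alone, which were longer in vehicle.

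**Figure D3:**
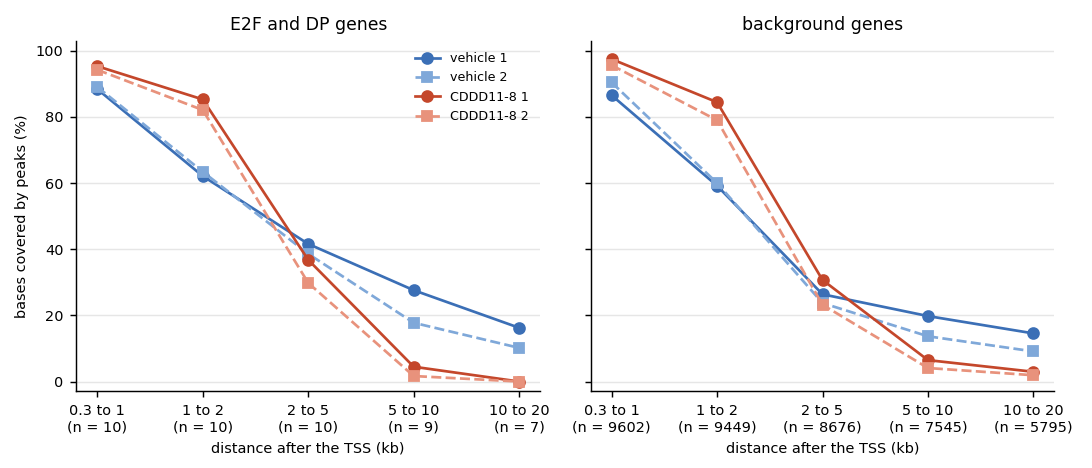
Percent of bases inside a peak (y axis) by distance after the TSS in kb (x axis, with the number of genes long enough), for the 10 genes on the left and the background on the right, with 1 line per library. The CDDD11-8 lines lie above the vehicle lines to 2 kb and below them from 5 kb, and reach 0% at 10 to 20 kb in the 10 genes.

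Past the ends of the genes, peaks were found in vehicle and not with CDDD11-8. In vehicle, the 3 kb after the TES of E2F2 were covered at 100% in both libraries, and with CDDD11-8 at 0% in both. E2F8 was at 52.5% and 56.5% in vehicle, E2F5 at 79.3% and 42.7%, E2F3 at 74.2% and 11.9%, and E2F6 at 39.9% and 19.7%, and all were at 0% in both CDDD11-8 libraries. E2F7 was at 12.1% and 16.4% and TFDP1 at 13.0% and 10.7%, again with 0% in both CDDD11-8 libraries. These 7 genes were thus covered past the TES in both vehicle libraries and in neither CDDD11-8 library, a pattern seen in 26.1% of the background, and 39.7% of it was lower there by the rule used above. The 3 kb after the TES of E2F5 lie within its neighbour RBIS, so peaks there cannot be assigned to either gene. E2F1 and E2F4, whose windows hold the start of a neighbour, stayed between 94.4% and 100%, and TFDP2 was at 0% in all 4 libraries. Of the 10 genes, 5 were lower there when a -log10 q-value of at least 5 was required (E2F2, E2F5, E2F6, E2F7 and E2F8), against 31.8% of the background. With equal numbers of peaks, 2 of the 10 were lower (E2F2 and E2F5), against 25.0%, a share no larger than that of the background. With the downstream 3 kb left out of the gene body, 7 genes were lower (E2F1, E2F2, E2F3, E2F5, E2F7, E2F8 and TFDP1), against 37.1% of the background.

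The last covered base of the gene body lay nearer to the TSS with CDDD11-8 in 7 of the 9 genes that had one in all 4 libraries, against 44.6% of 9308 background genes. In E2F3 it lay 94.8 and 93.4 kb after the TSS in vehicle and 4.54 and 4.09 kb after it with CDDD11-8. In TFDP1 it lay at 57.1 and 58.1 kb and then at 2.53 and 2.58 kb, and in E2F7 at 46.9 and 47.1 kb and then at 1.75 and 1.58 kb. In E2F2, E2F5, E2F6 and E2F8 it lay between 19.5 and 40.4 kb in vehicle and between 1.78 and 4.73 kb with CDDD11-8. In E2F1 and E2F4, where the window ends inside a neighbour, it was at the end of the window, 13.9 and 9.76 kb, in all 4 libraries. The window of E2F5 also ends inside a neighbour, RBIS. In both vehicle libraries its last covered base was at the end of that window, 40.4 kb, and cannot be assigned to either gene. Genes with 1 or more separate gene body peaks in both vehicle libraries and 0 in both CDDD11-8 libraries were E2F2, E2F7 and TFDP1, 3 of 10, against 21.7% of the background. The last covered base and the separate peaks were not read with equal numbers of peaks, and the vehicle lists were longer.

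At the other end of the gene, the promoter peak was wider with CDDD11-8 in 7 of the 10 genes (E2F3, E2F5, E2F6, E2F7, E2F8, TFDP1 and TFDP2), a share near the 64.5% of the background. E2F6 measured 2849 and 2243 bp in vehicle and 4188 and 3673 bp with CDDD11-8, a mean of 2546 ± 429 bp (SD, n = 2) against 3930 ± 364 bp. E2F8 measured 2977 and 2628 bp and then 4643 and 3797 bp. TFDP1 measured 644 and 3166 bp and then 4406 and 4775 bp, with vehicle replicate 1 far below replicate 2. That library split the TFDP1 start into more than 1 peak, and the promoter peak ended 51 bp before the TSS. E2F1 measured 16326 bp in vehicle replicate 1 and between 3639 and 4470 bp in the other 3 libraries, since in that library the peak ran through the whole gene. Its direction depended on which vehicle library was used: E2F1 was wider with CDDD11-8 by 751.5 bp without vehicle replicate 1, and without vehicle replicate 2 it was narrower, with a difference of -11936 bp. E2F2 and E2F4 were wider when CDDD11-8 replicate 2 was left out and narrower when CDDD11-8 replicate 1 was, with differences of -98.5 bp and -3706 bp.

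The promoter peak also reached further into the gene in 6 genes (E2F3, E2F5, E2F7, E2F8, TFDP1 and TFDP2), against 59.5% of the background, and less far in E2F2, against 9.73%. E2F7 is an example, with an end at 1017 and 931 bp in vehicle and 1747 and 1577 bp with CDDD11-8. In E2F2 the ends were at 4764 and 4887 bp and then 4731 and 3994 bp, so the nearest values of the treatments lay close together. Without vehicle replicate 2 the count of genes that reached less far was 3 (E2F1, E2F2 and E2F6), against 17.5% of the background. It was also 3 without CDDD11-8 replicate 1 (E2F1, E2F2 and E2F4), against 17.1%. E2F6 reached further without vehicle replicate 1, and E2F4 without CDDD11-8 replicate 2. With peaks within 1 kb of each other joined, 4 genes reached further (E2F3, E2F5, E2F6 and TFDP2), against 43.7% of the background, and 4 less far (E2F1, E2F2, E2F4 and E2F7), against 18.7%. E2F8 and TFDP1 then overlapped between treatments. Joining also made the peaks of E2F1, E2F4 and E2F7 narrower with CDDD11-8, and for E2F7 this turned the direction. The shares of the family that were wider or reached further were near those of the background.

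**Figure D4:**
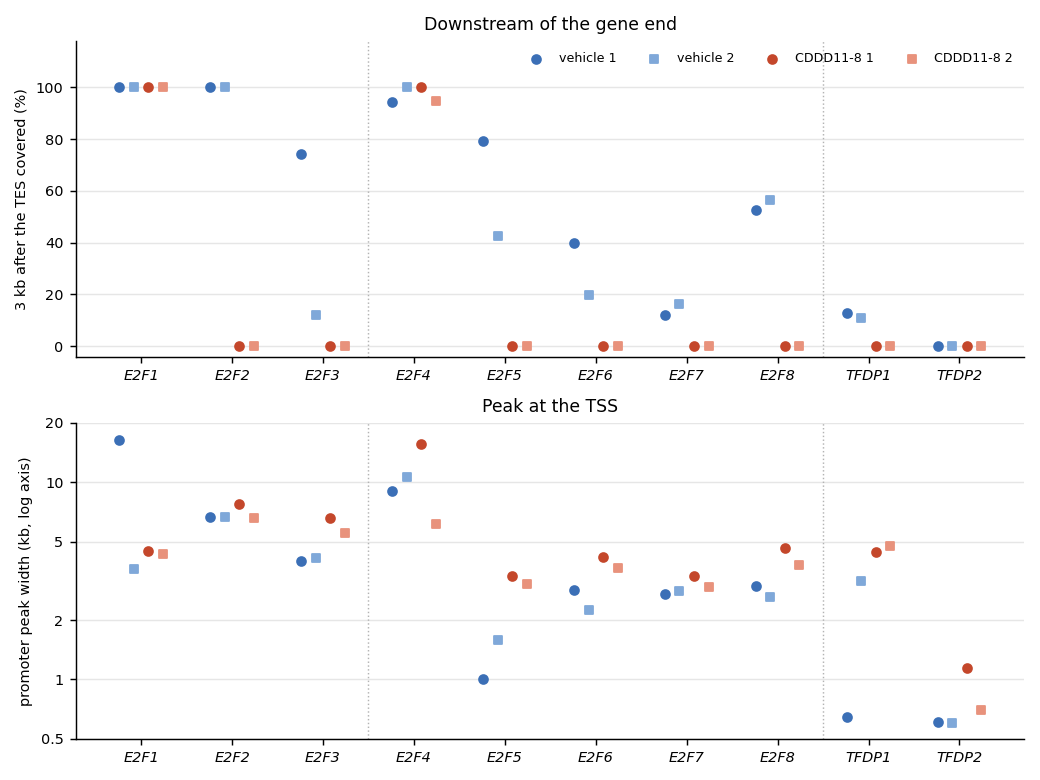
Top, percent of the 3 kb after the TES inside a peak, and bottom, width of the promoter peak in kb on a log axis, for each of the 10 genes with 1 point per library (circles replicate 1, squares replicate 2). In 7 genes the CDDD11-8 points lie at 0% past the TES, and in 7 genes the CDDD11-8 promoter peaks are wider than both vehicle peaks.

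The strength of a promoter was read as its rank, since fold enrichment was scaled within each library. Ranked by fold enrichment among all peaks of the same list, 4 promoters were lower with CDDD11-8 (E2F1, E2F3, E2F7 and TFDP1), against 42.0% of the background, and 2 were higher (E2F4 and E2F5), against 9.08%. With equal numbers of peaks, 0 were lower, against 11.6% of the background, and 4 were higher (E2F2, E2F4, E2F5 and E2F6), against 38.6%. The differences of E2F1 and E2F3 were then -1.55 and -0.60 percentage points and those of E2F7 and TFDP1 8.54 and 8.53, all with overlap between treatments. E2F3 lay above 98.4% and 97.9% of the peaks in vehicle and above 95.7% and 92.5% with CDDD11-8. E2F5 lay above 50.7% and 58.5% and then above 67.1% and 64.5%. The lists differ in how many weak peaks they hold, so the promoters were also ranked among the background promoters alone, an alternative chosen after seeing the data. By that measure E2F3 and E2F7 were lower, against 23.8% of the background, and E2F4 and E2F6 were higher, against 23.7%. E2F4 differed most, above 47.4% and 33.0% of promoters in vehicle and above 85.3% and 77.4% with CDDD11-8. The ranks of E2F4 compare different places, however. In vehicle its strongest summits lay 7714 and 7109 bp after the TSS, near the TSS of ELMO3 at 6956 bp, and with CDDD11-8 they lay 206 and 203 bp after it. Likewise, the strongest summit of the E2F1 promoter peak in vehicle replicate 1 lay 12065 bp after the TSS, near that of NECAB3 at 11922 bp. Its fold enrichment was 7.54, against 3.99 at the summit 43 bp after the TSS of E2F1. The part of these neighbours in the ranks was not tested. E2F6 was at 47.2% and 60.7% and then at 70.6% and 66.2%, and E2F7 at 38.0% and 55.7% and then at 33.8% and 32.6%. Ranked by pileup, the number of fragments stacked at the summit, or by q-value, neither E2F4 nor E2F5 was higher.

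Within the promoter peaks, the summit with the highest pileup within 1 kb of the TSS lay mostly just after the start. In E2F3 it was 115 and 141 bp after the TSS in vehicle and 114 and 71 bp after it with CDDD11-8. In E2F4 it was at 132 and 13 bp and then at 206 and 203 bp, and in E2F6 at 60 and 251 bp and then at 125 and 189 bp. In TFDP1 it lay before the first TSS in 3 of the 4 libraries, at -261 bp in vehicle replicate 1 and at -254 and -332 bp with CDDD11-8. The second annotated start of E2F8, 675 bp after the first, had a summit within 300 bp in replicate 2 of both treatments and in neither replicate 1. No inner start of E2F5, E2F7 or TFDP2 had a promoter peak in a CDDD11-8 library. In vehicle, only the E2F5 start 32059 bp after the first had one, in replicate 2 alone.

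The consensus matches were set beside the coverage. The 7 genes whose coverage to the TES was lower with CDDD11-8 were the 7 with a match, and the 3 without one (E2F4, E2F6 and TFDP2) overlapped or were higher. This split was seen in that window and not in others: E2F6, which has no match, was also lower with the 3 kb after the TES included and with the window begun at 2 kb and ended at the TES. Over the background this was a small difference: 40.0% of 925 genes with a match and 36.8% of 8677 genes without one were lower by the same measure. With the 3 kb after the TES included, the shares were 49.2% and 44.9%. Median coverage in vehicle was 16.3% with a match and 16.4% without, so the letters did not separate genes by how much of them was covered.

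The rest of the pathway was read from 2 lists. Of 10 genes for pocket proteins and their DREAM and MuvB complex, which silences cell cycle genes in resting cells and activates late ones, 9 had a promoter peak in all 4 libraries. Gene body coverage was lower in 6 of these 9 (45.3% of the background), higher in 1 (21.5%) and overlapped in 2, with a median difference of -10.4 percentage points, against -2.11 over the background. RBBP4, a histone-binding subunit of MuvB, was at 92.3% and 81.8% in vehicle and at 8.77% and 6.54% with CDDD11-8. FOXM1, which activates mitotic genes, was at 81.1% and 51.6% and then at 17.1% and 11.5%. RBL2, the pocket protein p130, was at 38.8% and 32.6% and then at 3.74% and 3.57%. LIN37, a MuvB subunit, was higher, at 52.4% and 62.2% in vehicle and 95.6% and 64.0% with CDDD11-8. RB1 had no promoter peak in any library at the start of its longest listed protein-coding transcript, at position 48955386, and all 10 genes had one when the canonical isoform was used.

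Of 22 classical E2F target genes, 21 had a promoter peak in all 4 libraries, and CCNE1, which encodes cyclin E1, lacked one in vehicle replicate 1. Coverage was lower in 17 of the 21 (45.3% of the background), higher in 2 (21.5%) and overlapped in 2, with a median difference of -39.9 percentage points. MCM3, a subunit of the replicative helicase, was at 90.2% and 87.3% in vehicle and at 14.2% and 10.9% with CDDD11-8. MCM5, of the same helicase, was at 100% and 69.9% and then at 12.9% and 6.24%, and CCNE2, which encodes cyclin E2, at 96.3% and 97.8% and then at 21.4% and 23.3%. PCNA, the sliding clamp of DNA polymerases, was higher, at 74.3% and 72.0% and then 97.7% and 92.8%. POLA1, the catalytic subunit of polymerase alpha, was higher from near 0, at 0.155% and 0.0448% and then 0.499% and 0.483%. With equal numbers of peaks, 16 of 19 target genes and 5 of 9 pocket protein and DREAM genes were lower, against 29.3% of the background. The consensus letters were found in 9 of the 22 target genes and 3 of the 10 pocket protein and DREAM genes.

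**Figure D5:**
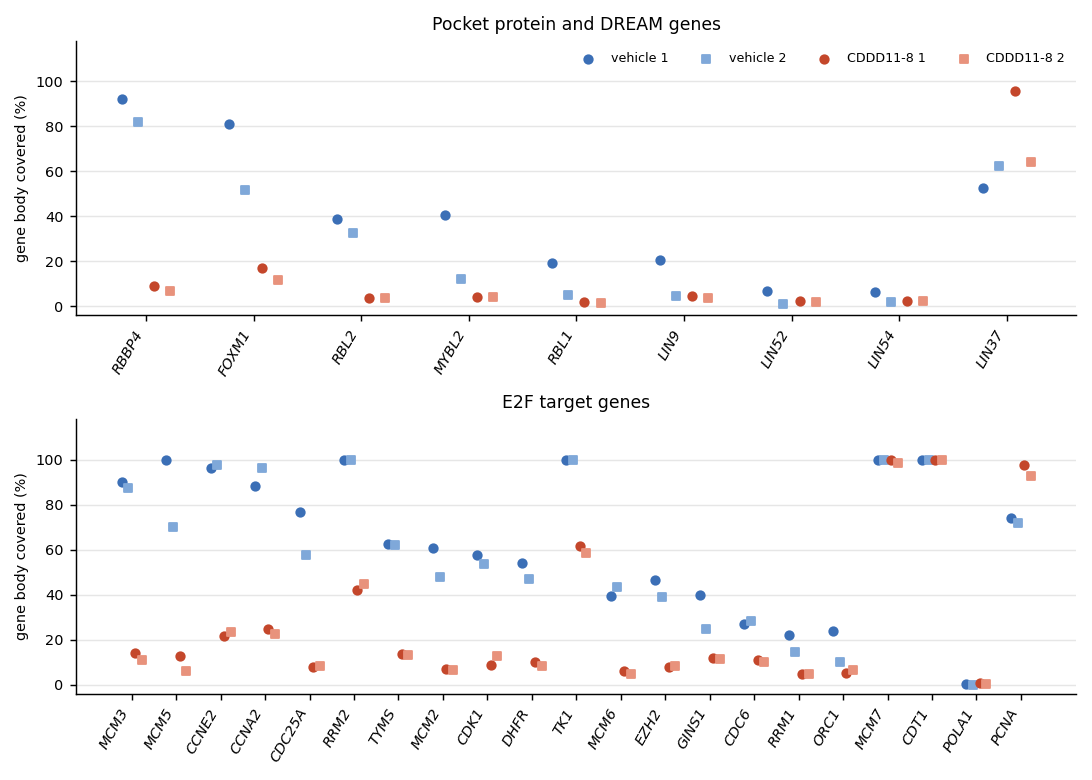
Gene body coverage in percent (y axis) for the pocket protein and DREAM genes (top, 9 genes) and the E2F target genes (bottom, 21 genes), ordered by the difference between treatments, with 1 point per library. The CDDD11-8 points of 17 target genes lie below both vehicle points, MCM7 and CDT1 stay near 100%, and LIN37 and PCNA lie higher with CDDD11-8.

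The genes whose coverage in the 4 libraries was nearest to the family's medians were NSD3, ZNF140 and CAAP1, at Euclidean distances of 0.535, 1.06 and 1.38 percentage points over the 4 libraries. NSD3 was at 16.2% and 12.6% in vehicle and 6.20% and 5.91% with CDDD11-8.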

How the data were processed

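RNAPII ChIP-seq of MDA-MB-453 cells was analysed in 4 libraries, 2 of vehicle and 2 of CDDD11-8, grouped by the labels. The 4 input libraries were not analysed as samples. Read pairs had been aligned by the authors with Bowtie 2 to GRCh37, and MACS2 had called peaks in each library against its own input. Versions are not given in the sources used here. The deposited pileup is a signal at each summit. It ran in steps of 1 for vehicle and of 0.74 and 0.96 for CDDD11-8, whose values MACS2 had thus scaled. The deposited fold enrichment (a ratio) sets the signal against the background around the peak. Each summit's p-value and q-value were deposited as −log10. The labels state at least 60000000 paired-end reads for a sample, but the deposited lists hold no counts, so the depth of each library and its precision are unknown, and the number and size of peaks can follow depth and scaling as well as RNAPII.

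Summits of 1 region were joined into 1 peak with its highest fold enrichment. Each gene was represented by its longest protein-coding transcript in GENCODE release 44 mapped to GRCh37. Promoters and gene bodies follow windows that the study used. Sequences came from the GRCh37 genome. The treatments were compared by the exact two-sided permutation test on library values. The family and the gene lists were chosen with earlier results of these data known. Named are the 10 genes, from each list the 3 largest differences in coverage and any gene called higher, and the 3 genes nearest to the family's medians. RBIS, NECAB3 and ELMO3 are named as neighbours, and CCNE1, RB1, MCM7 and CDT1 were named after their values were seen. The marker PECAM1 was not analysed here, and 1 luminal marker is not reported here. Alternatives covered q-value, equal numbers of peaks, windows, isoform, joining of peaks, summits, rank scores, each replicate left out, a replicate block and genes apart from neighbours. On simulated peaks planted at 500 genes, the 5 measures were recovered at all 500. Python 3.11.15 was used with matplotlib 3.10.9, scipy 1.17.1, pandas 2.3.3 and numpy 2.4.6.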

Additional observations from a re-analysis of the deposited data

How the results depend on the processing

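Of the counts and differences under the alternatives, 117 stayed close and 27 had moved, where close means within 1.5 times for a count and within 8.61 percentage points, the SD over the replicate numbers, for activators less repressors. A count that went from 7 to 5 or from 6 to 4 is thus among those that stayed close. Lower gene body coverage held in 7 or 8 genes for other gene bodies, isoforms and joined peaks, against 37.1% to 51.6% of the background. It held in 8 to 9 genes with a library left out, against 46.7% to 57.8%. The count of 9 came without CDDD11-8 replicate 1, where the background share was 57.3%. With the replicate block it held in 8 genes, against 50.4%. It held in 5 genes at a -log10 q-value of at least 5, against 37.5%, and in 4 with equal numbers of peaks, against 29.3%. In percentage points, the coverage difference reversed to 0.14 in TFDP1 at that q-value, and with equal numbers of peaks to 0.72 in E2F3, 1.71 in E2F6, 0.24 in E2F7 and 1.14 in TFDP1. Coverage past the TES was lower in 2 genes with equal numbers of peaks. Of pocket protein and DREAM genes, 3 of 4 that lie at least 3 kb from other genes were lower, and of target genes 7 of 8. Of the background genes that lie as far apart, 44.9% were lower.

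The promoter peak reached less far in 1 gene, and in 4 with peaks within 1 kb joined (where 4 in place of 6 reached further), 1 to 3 with a library left out and 2 with the replicate block (E2F1 and E2F2). Measured by the last peak in the gene body, 7 genes were less far and 0 further, and the difference reversed to -89807 bp in E2F3, -38374 bp in E2F5, -45315 bp in E2F7, -16501 bp in E2F8 and -55029 bp in TFDP1. With peaks joined, E2F7 reversed to -1087 bp in reach and -1392 bp in width. The promoter to gene body ratio was higher in 1 gene, in 6 of 7 with summits on their own, in 0 with equal numbers of peaks or joined peaks (none had the ratio) and in 1 to 4 with a library left out. Background shares of these alternatives are not given here, so the counts do not set the family apart.

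Promoter rank was higher in 2 genes, in 0 by -log10 q, or by pileup, in 4 with equal numbers of peaks and in 1 with peaks joined. Both genes lie within 3 kb of others, so the 7 genes apart from neighbours, with 0 higher, do not include them. It was lower in 4 genes, in 8 by -log10 q, in 10 by pileup and in 0 with equal numbers of peaks. The counts by -log10 q and by pileup stand here without background shares, so they do not set the family apart from other genes. The rank difference reversed to -0.53 (E2F4) and -14.7 (E2F5) percentage points by -log10 q, to -3.46 (E2F4) and -16.0 (E2F5) by pileup, to 7.85 (TFDP1) with a promoter from 50 bp before the TSS, and to 8.54 (E2F7) and 8.53 (TFDP1) with equal numbers of peaks. The median coverage difference of activators less that of repressors, -39.7 percentage points, was -59.1 from 2 kb after the TSS, -54.3 when ended at the TES and -16.4 over 200 bp bins. The cause of these shifts was not tested. The rank among promoters, the bases past the TES, the second directions counted, and the alternatives for the lists and roles were added after seeing the data. Replicate numbers are shared between treatments, but no label says that they mark 1 passage.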
